A study of Mus musculus with 6 samples.

Results

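Glycolysis and the genes that hypoxia-inducible factor (HIF) turns on were described here through 39 genes: 15 core glycolytic enzymes, 3 glucose and lactate transporters, 4 regulators of glycolytic flux, the HIF subunit Hif1a with 2 prolyl hydroxylases, and 14 hypoxia-induced genes outside glycolysis. They were chosen by symbol, and all 39 were found among the 49671 genes of the count tables and passed the filter on low counts, which kept 13996 genes. The cells carried the OT-I transgene, a T cell receptor specific for the ovalbumin peptide SIINFEKL. They came from mouse spleen cells and were labelled as naive primary CD8 T cells. Every group carried the OT-I genotype and received SIINFEKL for 48 h, shown on antigen-presenting cells. The groups were BiTS, BiTS(mut) and an isotype control, with 2 libraries in each. BiTS is a bispecific protein that tethers the inhibitory receptor LAG-3 to the T cell receptor. The labels do not describe the mutation in BiTS(mut), the dose, or whether the libraries of a group came from separate cultures or animals, so the p-values below measure only the spread between these libraries.

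Glycolysis splits glucose into pyruvate in the cytosol, and activated T cells run it at a high rate even when oxygen is present, passing much of the pyruvate to lactate. HIF-1 is a pair of proteins, of which the oxygen-sensitive one is encoded by Hif1a. When oxygen is plentiful, prolyl hydroxylases of the EGLN family mark this subunit for degradation, while low oxygen or strong T cell receptor signalling lets it build up, bind DNA at the core letters ACGTG or GCGTG, and raise the transcription of glycolytic enzymes and of genes for angiogenesis, mitophagy and collagen modification. In T cells the glycolytic enzymes are also driven by MYC, whose binding sequence CACGTG contains the letters ACGTG, so the enzymes and the hypoxia-induced genes outside glycolysis share only a part of their known control.

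Depth was 10813123 to 15239077 gene counts in a library, beside which the ERCC spike-ins made up 3.36% to 7.54% of the total. The sample titles are numbered 1 to 6, and the libraries fell into a first set (titles numbered 1 to 3: replicate 1 of each treatment) and a second set (4 to 6: replicate 2 of BiTS and of BiTS(mut), with isotype replicate 4). The labels do not call these sets a batch. Second against first set, 52.7% of all genes were called, 7382 of 13996, so each treatment comparison below is given without a term for the set, as the main design has it, and with the set as a replicate block. All 10 T cell markers were counted in every library, summing to 2041 to 2762 counts per 1e6 scaled counts (CPM). Of 18 dendritic cell markers 16 passed the filter and the list summed to 1584 to 3157 CPM, with Siglech at 0 counts in every library and Cd209a at 0 or 1. Macrophage and monocyte markers summed to 31.2 to 52.3 CPM. The filter was passed by 3 of 8 B cell, 2 of 6 NK cell, 4 of 8 stromal and endothelial, 0 of 8 neutrophil and 0 of 7 erythroid markers. In such bulk libraries, fewer cells of a type and less RNA per cell cannot be told apart.

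RefSeq promoter windows, 250 bases before to 50 bases after each start on GRCm38.p6, were matched for 34 of the 39 genes, as 55 windows, and not for Slc2a3, Bnip3l, Ero1l, Ndrg1 and Bhlhe40. The letters ACGTG, the core to which HIF binds, were searched on both strands, so that a match on the other strand reads CACGT. They stood in 29 of the 55 windows (52.7%) against 19.6% of all 32851 windows, and in at least 1 window of 25 of the 34 genes (73.5%) against 21.8% of all 27025 genes. The median GC content was 64.3% in the members' windows and 52.7% in all, and its part in this difference was not tested. Several windows were matched for 13 of the 34 genes, and where windows overlap a match can count more than once. More windows per gene also give more room for a match, with 55 windows for 34 members and 32851 for 27025 genes. The part of this was not tested either. The other core, GCGTG, stood in 56.4% of the members' windows and 32.4% of all. The palindrome CACGTG, the E-box that MYC binds and that contains ACGTG, stood in 10.9% and 7.15%. ACGTG stood in 10 of 15 core enzymes and in 8 of 10 matched hypoxia-induced genes. Counted outside CACGTG, it stood in 10 of the 15 and in 6 of the 10, against 15.3% of all genes. Stretches of 60 bases, each picked to hold a match, are shown for genes whose levels are described below. They read 5′ to 3′ along the gene's own strand, with ACGTG or CACGT in capitals. Pfkm, Mxi1 and Ldha also had windows at other starts without a match. Ankrd37 and Pfkm had the largest fold changes in BiTS against isotype among the hypoxia-induced genes and the enzymes. Mxi1, P4ha2, Bnip3 and Hif1a were lower in the second set, and Egln3 and Ldha were higher there in CPM. Pgk1 is a textbook HIF target that was not called in a treatment comparison with all libraries.
Ankrd37, chr8:45999851-45999910, minus strand: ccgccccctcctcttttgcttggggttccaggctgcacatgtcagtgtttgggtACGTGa
Pfkm, chr15:98092427-98092486, plus strand: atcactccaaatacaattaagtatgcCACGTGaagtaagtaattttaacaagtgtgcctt
Mxi1, chr19:53329320-53329379, plus strand: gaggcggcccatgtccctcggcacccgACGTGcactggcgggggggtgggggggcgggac
P4ha2, chr11:54100819-54100878, plus strand: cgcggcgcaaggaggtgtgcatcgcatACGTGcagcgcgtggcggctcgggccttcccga
Bnip3, chr7:138909581-138909640, minus strand: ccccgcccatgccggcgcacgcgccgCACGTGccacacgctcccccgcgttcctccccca
Hif1a, chr12:73907770-73907829, plus strand: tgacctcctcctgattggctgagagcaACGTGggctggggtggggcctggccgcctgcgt
Egln3, chr12:54204065-54204124, minus strand: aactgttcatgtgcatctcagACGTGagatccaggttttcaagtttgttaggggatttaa
Ldha, chr7:46845743-46845802, plus strand: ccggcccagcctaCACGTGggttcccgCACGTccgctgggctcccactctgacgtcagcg
Pgk1, chrX:106186942-106187001, plus strand: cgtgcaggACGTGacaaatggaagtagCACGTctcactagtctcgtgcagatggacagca

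These stretches show matches at varied distances from the start. In Ankrd37 the match shown began 6 bases before it, in Mxi1 66 bases, in Hif1a 70 bases and in P4ha2 78 bases. Within the stretches Pfkm, Bnip3 and Ldha each carried the E-box form, read as a match on both strands, and Ldha a further CACGT 34 bases before the start. Some windows held further matches outside the stretches, among them those of Ankrd37, P4ha2 and Hif1a, where an E-box began 135 bases before the start. The windows of 9 of the 34 genes held no ACGTG, those of Pdk1, Kdm3a, Gbe1, Gpi1, Tpi1, Eno1, Pfkl, Pfkp and Pfkfb4, of which the first 4 are among the genes called in BiTS against isotype below. The other core, GCGTG, stood in a window of Pdk1, Kdm3a, Eno1, Pfkl, Pfkp and Pfkfb4, while Gbe1, Gpi1 and Tpi1 held neither core. A match describes letters in a window and not a bound site.

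By median level the 9 most abundant members were core enzymes, and the other 6 core enzymes ranked below the hypoxia-induced gene Bhlhe40. The range of Bhlhe40 overlapped those of its neighbours Pgam1 and Pfkp, so the order of these genes is not settled. On the per-length scale (TPM, counts per transcript length scaled to a fixed total, from the exon lengths in the tables) Gapdh, the dehydrogenase at the midpoint of the pathway, stood first with a level of 3134 to 3616 TPM over the 6 libraries (median 3364). Ldha, which turns pyruvate into lactate, followed with 2112 to 2280.3 TPM, and its range did not reach that of Gapdh. Below it the pyruvate kinase gene Pkm (median 1812 TPM), the phosphoglycerate kinase gene Pgk1 (1668 TPM), the aldolase Aldoa (1485 TPM), the isomerase Tpi1 (1408 TPM) and the enolase Eno1 (1323 TPM) had ranges that overlapped their neighbours', so their order is not settled by these libraries. A gap then separated Eno1, at no less than 1229 TPM, from Gpi1, the second step of the pathway, at no more than 657 TPM. Isoforms of an enzyme differed in level: the aldolase Aldoc had a median of 47.6 TPM beside the 1485 TPM of Aldoa, and of the phosphofructokinases Pfkp had 366 TPM, Pfkl 250.2 TPM and Pfkm 87.7 TPM.

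Hypoxia-induced genes outside glycolysis ranged from a median of 373 TPM for the transcription repressor Bhlhe40 and 341 TPM for the oxidoreductin Ero1l to 19.4 TPM for the glycogen branching enzyme Gbe1. Summed over the 15 core enzymes the level was 14084 to 16870 TPM per library, and over the 14 hypoxia-induced genes it was 1102 to 2306 TPM. Of the glucose carriers, Slc2a1 had a median of 258 TPM and Slc2a3 177 TPM, with ranges that overlapped, and the lactate exporter Slc16a3 had 184 TPM. The kinase Pfkfb4, which sets the level of a phosphofructokinase activator, was the least abundant member at 6.75 to 9.52 TPM. Reads of near-identical pseudogene copies may be split differently by the authors' counting, so the levels of Gapdh, Ldha, Pgk1, Tpi1, Pkm and Eno1 carry that uncertainty. The expressed copy Eno1b held 52 to 80 counts per library.

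**Figure D1:**
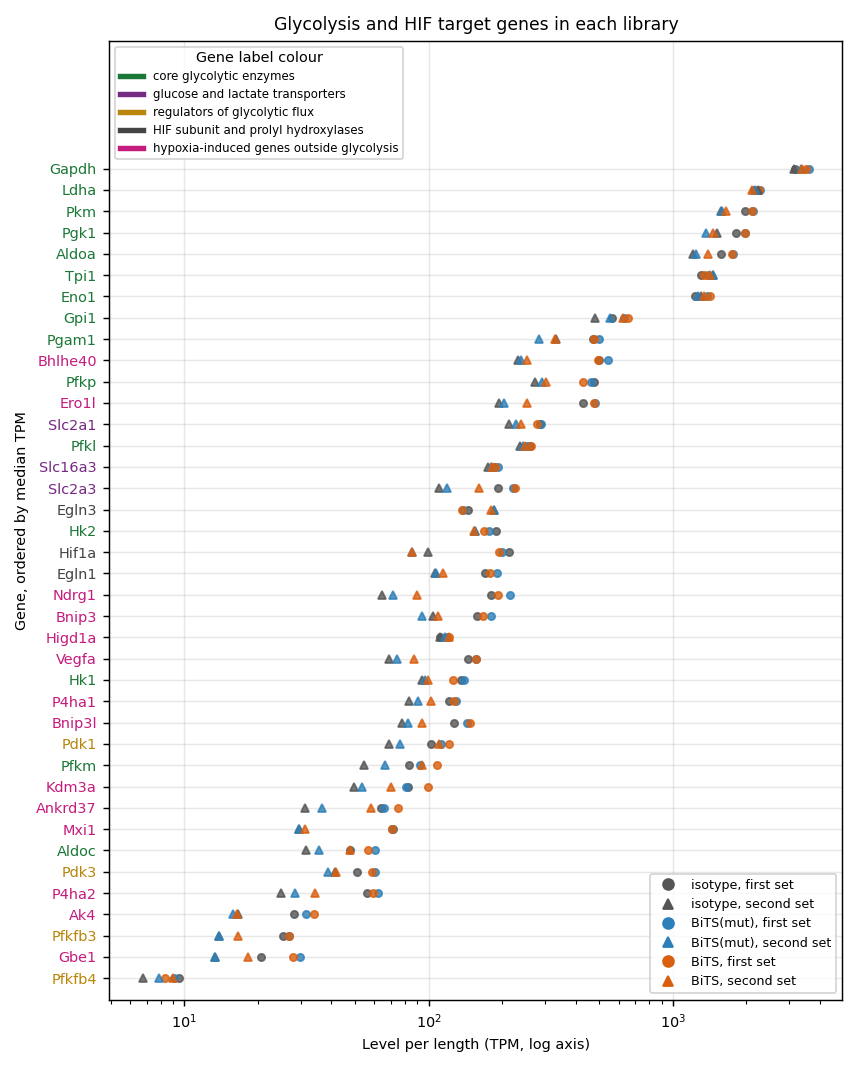
Level of each of the 39 genes in the 6 libraries (x axis, TPM, log axis), ordered by median from Gapdh (3364 TPM) to Pfkfb4 (8.66 TPM), with circles for the first set, triangles for the second and colour for the treatment. Core enzymes fill the top 9 ranks, and for genes such as Ndrg1, Hif1a and Mxi1 the 3 triangles lie left of the 3 circles.

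The first comparison asked how BiTS differed from the isotype control. With the set as a block, 9 of the 39 genes rose in BiTS and 0 fell, against 3.4% of all genes called, 1.81% higher and 1.59% lower (edgeR's quasi-likelihood test, adjusted p under 0.05). The 9 were the enzymes Pfkm, Aldoc and Gpi1, the transporter Slc2a3, the regulator Pdk1 and the hypoxia-induced genes Ankrd37, Gbe1, Kdm3a and Ndrg1. Without the block 0 of 39 genes and 0.0% of all genes were called. At an unadjusted p under 0.05 that test held 1 of the members, Pfkm, and 176 of 13996 genes, and DESeq2 and limma-voom without the block also called 0 genes. The higher BiTS levels stood in both sets for 27 of the 39 genes, against 28.2% of all genes, and 7 members had both BiTS libraries above both isotype libraries while 1, the hexokinase Hk2, had them below, against 20.8% of all genes with no overlap in either direction. Left out in turn, BiTS replicate 2 cut the 9 calls to 1, and isotype replicate 4 raised them to 14. Scaled to the ERCC spike-ins, the blocked test called 0 of the 39 genes, while the log2 fold changes of the 9 were no smaller, from 0.37 for Gpi1 to 0.66 for Pfkm beside an all-gene median of 0.05, and their errors were wider (0.43 in place of 0.09 for Pfkm). The ranges of adjusted p given below leave out spike-in scaling and cover the 13 other blocked settings, in which the 6 with a library left out are included.

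Among the core enzymes 3 of 15 rose with the block, and the median log2 fold change of the 15 was 0.05, beside a median of 0.00 (-0.005) over all genes. Pfkm, the muscle-type phosphofructokinase and the smallest of the 3 phosphofructokinase levels here (ENSMUSG00000033065, chr15:98092589-98132447), stood at 88.8 and 69.2 CPM in isotype replicates 1 and 4, at 101 and 82.0 CPM in BiTS(mut) replicates 1 and 2, and at 121 and 116 CPM in BiTS replicates 1 and 2. Both BiTS libraries lay above the other 4. The log2 fold change was 0.59 ± 0.09 (SE) with the block, a 1.5-fold rise (edgeR, adjusted p = 2.02e-05, 1.17e-06 to 0.029 over those settings), and 0.58 ± 0.19 without it. It was 0.44 in the first set and 0.74 in the second. Without BiTS replicate 2 it remained called at 0.46, the only member to do so. The gene shares 18 exon bases with Senp1 on the opposite strand, whose counts were 76.2% of those of Pfkm and whose own log2 fold change was 0.07 ± 0.09.

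Aldoc, an aldolase isoform best known from brain (chr11:78322968-78327781), had 56.0 and 44.3 CPM in the isotype libraries, 73.1 and 48.6 CPM in BiTS(mut), and 69.5 and 65.2 CPM in BiTS. BiTS and isotype did not overlap, while BiTS(mut) replicate 1 was the highest of the 6. With the block the log2 fold change was 0.43 ± 0.10 (edgeR, adjusted p = 0.00842, 0.000681 to 0.593 over the other blocked settings), and it was no longer called without BiTS replicate 2, at 0.25. Gpi1, the glucose-6-phosphate isomerase (chr7:34201330-34230336), shares 741 exon bases, 11.5% of its exon length, with Gm26762 on the opposite strand. The counts of Gm26762 were 0.44% of those of Gpi1. Gpi1 had 1316 and 1327 CPM in isotype, 1507 and 1480.0 in BiTS(mut) and 1597 and 1692 in BiTS. Here the 3 groups stood in that order with no overlap. Its log2 fold change was 0.31 ± 0.08 (edgeR with the block, adjusted p = 0.0127, 0.000451 to 0.415 over the other blocked settings), and the call was lost without BiTS replicate 1 (0.36), BiTS replicate 2 (0.27), BiTS(mut) replicate 1 (0.31) or BiTS(mut) replicate 2 (0.32).

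The most abundant enzymes were not called with all libraries. Ldha had a log2 fold change of 0.01 ± 0.08, with 0.14 in the first set and -0.12 in the second, Pgk1 0.05 ± 0.08, Pkm 0.10 ± 0.08, Tpi1 0.02 ± 0.08, Gapdh 0.14 ± 0.08 and Eno1 0.14 ± 0.08, all with the block. Aldoa, at 0.19 ± 0.08, had both BiTS libraries above both isotype libraries but was not called either. Without isotype replicate 4, however, 4 of these enzymes were called higher, Eno1 at 0.28, Aldoa at 0.25, Gapdh at 0.23 and Pgk1 at 0.21, and the median of the 15 enzymes was then 0.18. The other phosphofructokinases did not follow Pfkm, with Pfkl at 0.05 ± 0.08 and Pfkp at 0.01 ± 0.08, though the difference between these genes was not tested. Of the hexokinases that trap glucose in the cell, Hk1 had -0.01 ± 0.08 and Hk2 -0.07 ± 0.08. Summed over all 15 enzymes the level was 22752 and 24255 CPM in isotype, 25527 and 23939 CPM in BiTS(mut) and 25550.2 and 25003 CPM in BiTS, so that both BiTS libraries lay above both isotype libraries. On the per-length scale, however, the sum in BiTS replicate 2 (14671 TPM) lay below that in isotype replicate 1 (15426 TPM). The median of the 15 enzymes was 0.16 within the first set and 0.04 within the second.

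Of the transporters, Slc2a3, the high-affinity glucose carrier GLUT3 (chr6:122727809-122801640), was at 503 and 342 CPM in isotype, 597 and 358 CPM in BiTS(mut) and 618 and 491 CPM in BiTS. BiTS was the highest within each set, but BiTS replicate 2 lay below isotype replicate 1. With the block the log2 fold change was 0.41 ± 0.09 (edgeR, adjusted p = 0.00187, 3.92e-05 to 0.481 over the other blocked settings), and without the block it was 0.39 ± 0.31. It fell below the threshold without BiTS replicate 2, at 0.25. Slc2a1, the carrier GLUT1, had 0.07 ± 0.08 and Slc16a3, the lactate exporter MCT4, 0.04 ± 0.08, and neither was called.

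Pdk1, a kinase that shuts the pyruvate dehydrogenase complex and so holds pyruvate back from mitochondria (chr2:71873224-71903858), was the called gene among the 4 regulators. It had 288 and 231 CPM in isotype, 326 and 247 CPM in BiTS(mut) and 356 and 358 CPM in BiTS, and both BiTS libraries lay above the other 4. The log2 fold change with the block was 0.47 ± 0.09, a 1.38-fold rise (edgeR, adjusted p = 0.000425, 1.59e-05 to 0.385 over the other blocked settings), 0.30 in the first set and 0.63 in the second. Without BiTS replicate 2 it was 0.28 and not called. The related kinase Pdk3 had 0.12 ± 0.11, Pfkfb3 0.17 ± 0.10 and Pfkfb4 0.11 ± 0.15, none of them called, and Pfkfb4 was lower in BiTS in the first set (-0.13) and higher in the second (0.38).

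HIF subunit and hydroxylase transcripts did not pass the test in this comparison. Hif1a had 455 and 253 CPM in isotype, 438 and 210.5 CPM in BiTS(mut) and 432 and 212 CPM in BiTS. Its log2 fold change with the block was -0.16 ± 0.08, below 0 in both sets, and it was called lower only when isotype replicate 1 was left out, at -0.27. Egln1, the main oxygen-sensing hydroxylase, had 0.10 ± 0.09 and Egln3, itself a known HIF target, -0.05 ± 0.08. HIF-1 activity is set largely at the protein level, which these libraries do not measure.

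The 14 hypoxia-induced genes outside glycolysis all had a log2 fold change above 0 with the block, 13 of them in both sets, and 4 rose. Their median was 0.25, beside 0.05 for the core enzymes and -0.005 for all genes, and it was 0.18 within the first set and 0.28 within the second, where the core medians were 0.16 and 0.04. Without isotype replicate 4 the blocked core median was 0.18. Without the block the medians were 0.23 and 0.06, but that of the hypoxia-induced genes then turned with single libraries, to -0.13 without BiTS replicate 1, -0.05 without isotype replicate 4, 0.65 without isotype replicate 1 and 0.53 without BiTS replicate 2. These lists hold few genes of the same libraries and the difference between their medians has no test.

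Ankrd37, a small ankyrin repeat protein long known as a HIF target (ENSMUSG00000050914, chr8:45996902-46005707), had 35.5 and 20.7 CPM in isotype, 37.4 and 23.4 CPM in BiTS(mut) and 43.3 and 37.4 CPM in BiTS. BiTS and isotype did not overlap, and BiTS replicate 2 was level with BiTS(mut) replicate 1. Its log2 fold change with the block was 0.54 ± 0.12, a 1.46-fold rise (edgeR, adjusted p = 0.00511, 9.71e-05 to 0.498 over the other blocked settings), 0.28 in the first set and 0.85 in the second. It became 0.31 without BiTS replicate 2 and 0.39 without isotype replicate 4, neither called, and 0.82 without BiTS replicate 1. The gene shares 57 exon bases with Ufsp2 on the opposite strand, whose counts were 151% of its own and whose log2 fold change was 0.11 ± 0.10, and 349 bases with Lrp2bp, at 3.85% of its counts. The shared bases are 3.70% of the Ankrd37 exon length for Ufsp2 and 22.7% for Lrp2bp. No source used here gives the strand setting of the counting. Without it, reads of these partners and of Ankrd37 over the shared bases cannot be told apart.

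Kdm3a, a histone H3 lysine demethylase that HIF induces (chr6:71588972-71632990), had 244 and 174 CPM in isotype, 247 and 183 CPM in BiTS(mut) and 307 and 242 CPM in BiTS. Within each set BiTS was clearly the highest and BiTS(mut) stood at the isotype level, although BiTS replicate 2 lay just below isotype replicate 1. The log2 fold change with the block was 0.40 ± 0.08 (edgeR, adjusted p = 0.00174, 0.00025 to 0.178 over the other blocked settings), 0.33 and 0.48 in the 2 sets, and 0.34 and not called without BiTS replicate 2.

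Gbe1, which adds branches to glycogen (chr16:70313949-70569716), had 39.7 and 30.8 CPM in isotype, 59.0 and 29.8 CPM in BiTS(mut) and 56.1 and 40.8 CPM in BiTS. BiTS and isotype did not overlap, and the BiTS(mut) libraries were both the highest and the lowest of the 6. Its log2 fold change with the block was 0.45 ± 0.12 (edgeR, adjusted p = 0.0159, 9.48e-05 to 0.345 over the other blocked settings), falling to 0.26 without isotype replicate 1 and 0.35 without BiTS replicate 2, neither called. Ndrg1, a stress-responsive gene (chr15:66929321-66969640), had 428 and 182 CPM in isotype, 526 and 196 CPM in BiTS(mut) and 476 and 249 CPM in BiTS. Here the spread between the sets was far wider than that between the groups. Its log2 fold change of 0.30 ± 0.09 was the nearest to the threshold of the 9 (edgeR with the block, adjusted p = 0.0452, 0.00392 to 0.908 over the other blocked settings). It was 0.10 without BiTS replicate 2, 0.50 without BiTS replicate 1 and 0.30 without either BiTS(mut) library, and of these 4 values that without BiTS replicate 1 was called.

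The other 10 hypoxia-induced genes were not called with all libraries. Just outside the threshold was Ero1l, which forms disulphide bonds in the endoplasmic reticulum, at 0.28 ± 0.08 (edgeR with the block, adjusted p = 0.0517, 0.00549 to 0.804 over the other blocked settings). The collagen prolyl hydroxylase P4ha2 had 0.27 ± 0.09, the mitophagy receptor Bnip3l 0.26 ± 0.09, the angiogenic factor Vegfa 0.24 ± 0.09 and P4ha1 0.19 ± 0.08. Some of these were called with a library left out: Ero1l without either isotype library (0.26 and 0.29), P4ha2 without isotype replicate 1 (0.33) or BiTS replicate 1 (0.44), and Bnip3l without isotype replicate 4 (0.31). Smallest were Ak4 at 0.17 ± 0.11, Higd1a at 0.13 ± 0.08, Bnip3 at 0.09 ± 0.09, Bhlhe40 at 0.07 ± 0.08 and Mxi1 at 0.04 ± 0.09. Leaving out any of the 6 libraries gave blocked medians between 0.15 (without BiTS replicate 2) and 0.31 (without BiTS replicate 1) for the 14 genes.

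Other genes of the pathway were read in the same blocked fit, in which 1.81% of all genes were called higher. From the list of 26 other hypoxia-induced genes 22 were tested and 4 rose, with a median of 0.11. Among them were Selenbp1 at 0.77 ± 0.11 and the demethylase Kdm4b at 0.38 ± 0.09. In the list of glycogen enzymes 1 of 8 rose, the phosphorylase Pygl at 0.46 ± 0.12. Of the 15 MYC, MondoA and mTORC1 regulators 1 rose, the MAX-binding repressor Mxd4 at 0.64 ± 0.13. Counts of 0 were found in the same test among 13 other glycolytic isoforms and side enzymes (2 at an unadjusted p under 0.05), 7 other transporters (2), 11 genes for pyruvate entry into mitochondria (0), 7 pentose phosphate genes (0) and 10 other HIF pathway subunits and regulators (0).

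Markers of other cells moved between the same groups. With the block, 6 of the 16 tested dendritic cell markers fell in BiTS against isotype, with a median of -0.33, and their sum was 3147 and 1667 CPM in isotype and 2609.5 and 1584 CPM in BiTS. Of the 10 T cell markers 3 rose (Lck, Cd8a and Cd8b1), and their sum was 2041 and 2548 CPM in isotype and 2467 and 2762 CPM in BiTS. The part of either in the values above was not tested.

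**Figure D2:**
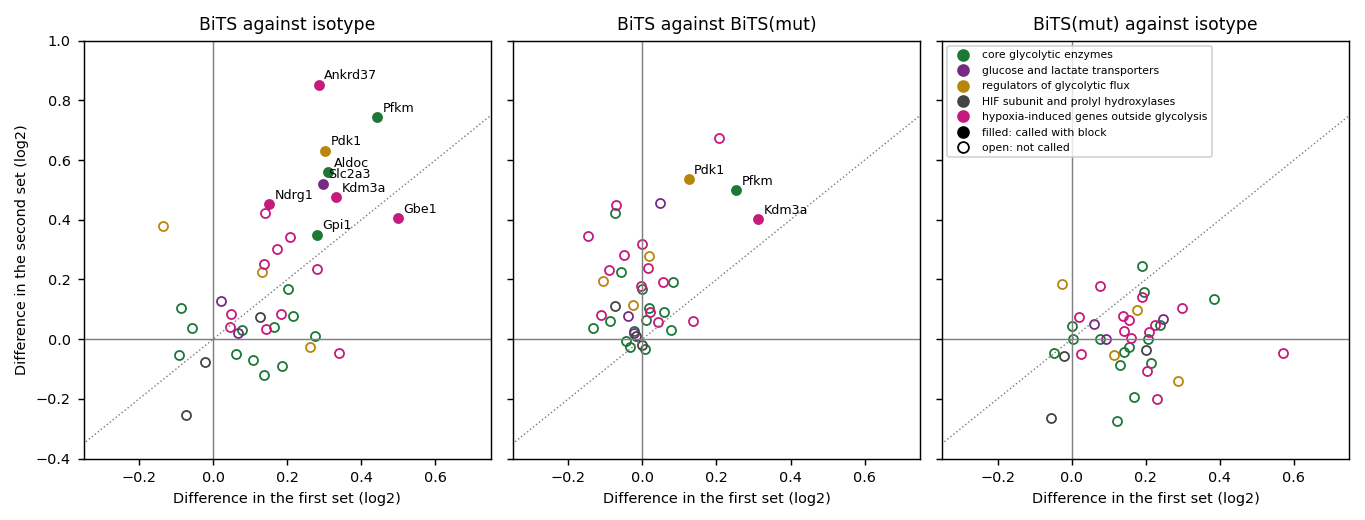
Log2 difference between groups in the first set (x axis) and in the second set (y axis) for the 39 genes, with a panel for each comparison, colour for the group of genes, and filled points for genes called with the block. In BiTS against isotype the 9 filled points lie above 0 in both sets, 8 of them above the dotted line of equal differences, and Hif1a lies below 0 in both.

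The second comparison set BiTS against BiTS(mut). With the block 3 of the 39 genes rose in BiTS and 0 fell, Pfkm, Kdm3a and Pdk1, against 0.972% of all genes called, 0.272% higher and 0.7% lower. Without the block 0 of 39 members and 0.0% of all genes were called by edgeR's quasi-likelihood test, DESeq2 or limma-voom, with 0 members and 76 genes at an unadjusted p under 0.05 in edgeR. Pfkm had a log2 fold change of 0.37 ± 0.09 with the block (edgeR, adjusted p = 0.0184, 5.89e-05 to 1.0 over the 13 other blocked settings without spike-in scaling), Kdm3a 0.36 ± 0.08 (adjusted p = 0.0142, 4.26e-06 to 0.946) and Pdk1 0.33 ± 0.09 (adjusted p = 0.0452, 1.63e-05 to 1.0). For Pfkm and Pdk1 both BiTS libraries lay above both BiTS(mut) libraries, and for Kdm3a BiTS replicate 2 lay just below BiTS(mut) replicate 1. All 3 calls were lost without BiTS replicate 2, when the values were 0.24, 0.30 and 0.15, and without either BiTS(mut) library, when they were 0.32 to 0.43, 0.35 to 0.37 and 0.21 to 0.46. That of Kdm3a was also lost without BiTS replicate 1, at 0.42, while Pdk1 then stood at 0.52 and was called. Leaving out either isotype library raised the count from 3 to 5.

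The list medians were larger in the second set, while Kdm3a differed by 0.31 in the first set and 0.40 in the second, Pfkm by 0.25 and 0.50 and Pdk1 by 0.12 and 0.54. The median of the 14 hypoxia-induced genes was 0.11 with the block (0.09 without), 0.01 within the first set and 0.24 within the second, and that of the core enzymes was 0.05, 0.00 (-0.002) and 0.07. Ankrd37 had 0.42 ± 0.12 and was not called (edgeR, adjusted p = 0.0731, 0.00324 to 1.0 over the same 13 settings), with 0.21 in the first set and 0.67 in the second. Slc2a3 had 0.25 ± 0.09, with 0.05 and 0.45. Gbe1 (-0.07 and 0.45), Aldoc (-0.07 and 0.42) and Ndrg1 (-0.15 and 0.35) had opposite signs in the sets. Of the 39 genes 16 were higher in BiTS in both sets and 3 lower in both, against 28.3% of all genes in each direction, and 4 members had both BiTS libraries above and 1 both below the BiTS(mut) libraries, against 16.6% of all genes without overlap. Beside these values, 5 of 16 dendritic cell markers and 1 of 10 T cell markers fell, and their part was not tested. Among the other hypoxia-induced genes Selenbp1 rose (0.47 ± 0.11).

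BiTS(mut) against isotype gave 0 calls among the 39 genes with or without the block, where 0.05% (0.00714% higher, 0.0429% lower) and 0.0% of all genes were called by edgeR's quasi-likelihood test. At an unadjusted p under 0.05 the blocked test held 5 of the members and 620 of 13996 genes, the unblocked test 0 members and 41 genes, and DESeq2 and limma-voom called 0 genes without the block. With the block the largest values were those of Gbe1 at 0.30 ± 0.12, Aldoc at 0.27 ± 0.10, Pfkm at 0.22 ± 0.09 and Ndrg1 at 0.21 ± 0.09. The median was 0.05 for the core enzymes and 0.11 for the hypoxia-induced genes. Both were larger in the first set, at 0.15 and 0.17, than in the second, at 0.00 (-0.001) and 0.04. Hif1a was at -0.16 ± 0.08 here too. Of the 39 genes 20 were higher in BiTS(mut) in both sets and 3 lower in both, against 25.2% and 24.0% of all genes. In 1 member both BiTS(mut) libraries lay above both isotype libraries and in 1 below, against 13.7% of all genes without overlap. This comparison shares its isotype libraries with the first and its BiTS(mut) libraries with the second, so the 3 do not count as separate evidence. Side by side, the log2 fold changes against isotype in BiTS and BiTS(mut) were 0.59 and 0.22 for Pfkm, 0.47 and 0.14 for Pdk1, 0.40 and 0.05 for Kdm3a, 0.54 and 0.12 for Ankrd37, 0.41 and 0.16 for Slc2a3, 0.43 and 0.27 for Aldoc, and 0.45 and 0.30 for Gbe1.

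The widest spread in these genes lay between the sets, within every treatment. In the fit with a term for the group, 31 of the 39 genes were called between the second and the first set, 4 higher and 27 lower, where 52.7% of all genes were called, 25.9% higher and 26.9% lower (edgeR's quasi-likelihood test). The hypoxia-induced genes outside glycolysis took 13 of the decreases, out of 14 genes, and had a median log2 difference of -0.68. Among the core enzymes 8 of 15 fell and 2 rose, with a median of -0.18. The median of all genes was 0.02. The count of 31 dropped to 20 without either of the BiTS(mut) libraries, and 20 of the 31 genes, 12 of them among the hypoxia-induced ones and 3 among the core enzymes, were called whichever library was left out. In these fits a library left alone in its treatment carries no set difference, so each rests on the other 4 libraries.

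Ndrg1 showed the largest fall, at -1.20 ± 0.07, from 428, 526 and 476 CPM in isotype, BiTS(mut) and BiTS of the first set to 182, 196 and 249 CPM in the second (edgeR, adjusted p = 1.08e-18). Mxi1, which competes with MYC for its partner MAX, fell by 1.06 ± 0.07 on the log2 scale, from 146, 148 and 150.4 CPM to 71.4, 68.9 and 73.4 CPM (edgeR, adjusted p = 2.31e-17). In both genes the 3 libraries of a set lay close together and far from the other 3. Ero1l fell from 683, 789.8 and 789 CPM to 368, 374 and 467 CPM, a log2 difference of -0.91 ± 0.07. Bhlhe40 fell from 846, 945 and 875 CPM to 469.7, 471 and 498 CPM (-0.89 ± 0.07), and Vegfa from 224, 249 and 252 CPM to 127, 133 and 157 CPM (-0.81 ± 0.07). The remaining decreases were those of P4ha2 (-0.83 ± 0.07), Ak4 (-0.75 ± 0.09), Gbe1 (-0.61 ± 0.09), Ankrd37 (-0.54 ± 0.10), Bnip3l (-0.53 ± 0.07), Bnip3 (-0.52 ± 0.07), Kdm3a (-0.42 ± 0.07) and P4ha1 (-0.27 ± 0.07, not called at -0.23 without either BiTS(mut) library). Of these genes Mxi1, P4ha2, Ankrd37 and Bnip3 carry the promoter letters shown above, and ACGTG also stood in windows of Vegfa, P4ha1 and Ak4. The same letters stood in windows of Higd1a, Egln3 and Ldha, which were called higher in CPM with all libraries. A link between the letters and the direction was not tested. The Kdm3a and Gbe1 windows held no ACGTG, though a Kdm3a window held GCGTG. Higd1a, a mitochondrial inner membrane protein, was the exception on the scale of gene totals, at 0.18 ± 0.07 (below 0 with spike-in scaling), a call lost when any of the 6 libraries was left out, with values of 0.13 to 0.20.

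Hif1a itself fell by 0.98 ± 0.07 on the log2 scale, from 455, 438 and 432 CPM to 253, 210.5 and 212 CPM (edgeR, adjusted p = 8.82e-17). Egln1 fell with it, at -0.53 ± 0.07. Egln3 rose, from 139, 137 and 137 CPM to 213, 205 and 202 CPM, a log2 difference of 0.59 ± 0.07 with the 3 treatments between 0.56 and 0.62. Hence the 2 hydroxylases, which act on the same subunit, stood apart in direction between the sets when counts were scaled to the gene totals, whereas with spike-in scaling Egln3 too lay below 0.

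Among enzymes of the pathway the direction was mixed. Tpi1 rose from 1295, 1428 and 1396 CPM to 1721, 1669 and 1639 CPM (0.29 ± 0.06), and Ldha from 2561, 2805 and 2816 CPM to 3183, 2994 and 2929 CPM (0.15 ± 0.07), a call lost when any library was left out, with values from 0.07 without either isotype library to 0.20. Both genes lay below 0 with spike-in scaling. Per length, Ldha went from 2143, 2280 and 2260 TPM to 2239, 2173 and 2112 TPM, a rise in isotype alone. Gapdh, at 0.13 ± 0.06, Eno1, at 0.15 ± 0.07, and Pfkl, at 0.10 ± 0.07, lay on the same side and were not called. Pfkp fell the most of the 15, from 1615, 1615 and 1519.9 CPM to 1104, 1137 and 1187 CPM (-0.47 ± 0.06). The mutase Pgam1 fell by 0.43 ± 0.07 on the log2 scale, and Aldoc (-0.34 ± 0.08), Hk1 (-0.28 ± 0.07), Pfkm (-0.24 ± 0.07), Pgk1 (-0.22 ± 0.07), Aldoa (-0.22 ± 0.06) and Pkm (-0.18 ± 0.06) were called lower. Without either BiTS(mut) library these 6 calls were lost, at -0.21 for Aldoc, -0.24 for Hk1, -0.21 and -0.20 for Pfkm, -0.15 and -0.14 for Pgk1, -0.16 for Aldoa and -0.14 for Pkm. Pgk1 and Pkm also lost theirs without either BiTS library, at -0.19 for Pgk1 and at -0.18 and -0.17 for Pkm. Outside the enzymes, Pfkfb3 fell by 0.65 ± 0.08 and Slc2a3 by 0.54 ± 0.07, whichever library was left out. Pdk3 (-0.30 ± 0.09) and Pdk1 (-0.23 ± 0.07) were called lower except without either BiTS(mut) library, at -0.20 for Pdk3 and at -0.16 and -0.15 for Pdk1. In BiTS alone the Pdk1 level did not drop, with a difference of 0.01 against -0.32 in isotype and -0.40 in BiTS(mut), and this contrast was not tested.

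**Figure D3:**
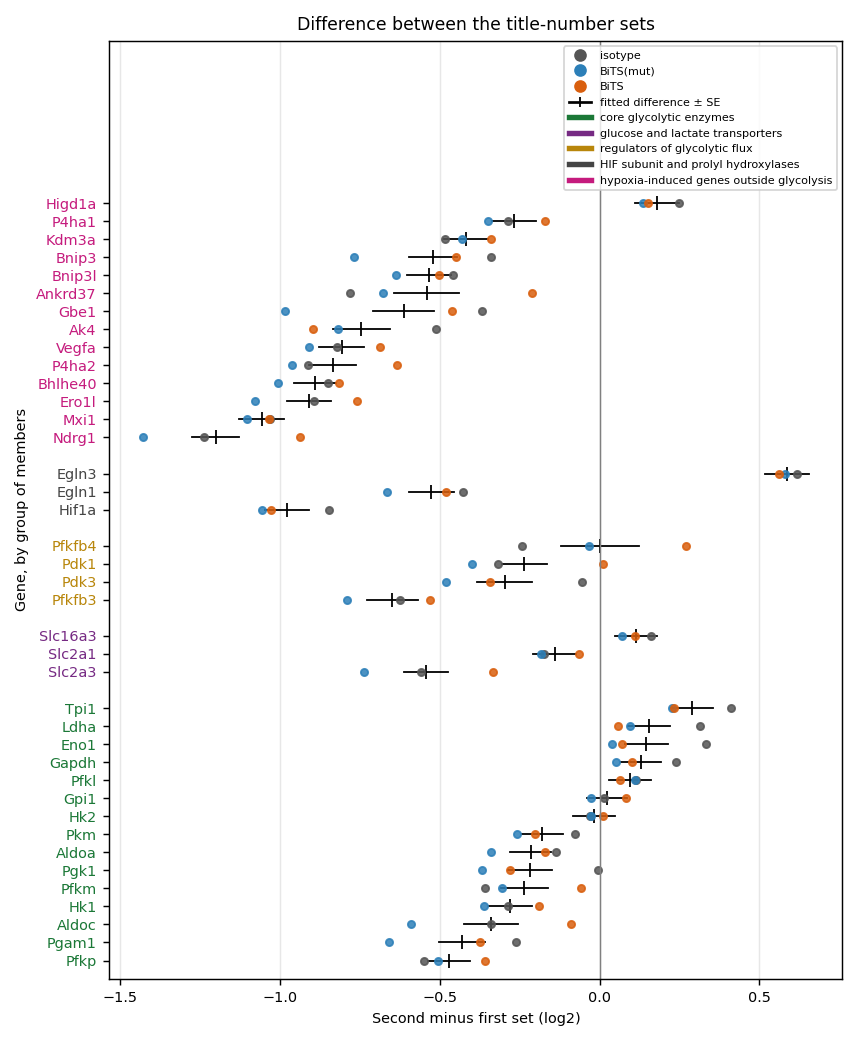
Second minus first set difference (x axis, log2) of the 39 genes, with a point for each treatment and a black tick and bar for the fitted difference ± SE. Hypoxia-induced genes lie left of 0 except Higd1a (which is below 0 with spike-in scaling), from -0.27 for P4ha1 to -1.20 for Ndrg1, while the core enzymes straddle 0 from -0.47 (Pfkp) to 0.29 (Tpi1, also below 0 with spike-in scaling).

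The directions of the rises depended on the scale. Scaled to the ERCC spike-ins in place of the gene totals, the median of all genes between the sets moved to -0.74, and 28 members were called lower and 0 higher, with Tpi1 at -0.47, Ldha at -0.61, Egln3 at -0.17 and Higd1a at -0.58. Relative to that median the same 4 genes stayed above it, at 0.27, 0.14, 0.57 and 0.16, and Ndrg1, Mxi1 and Hif1a lay below it at -1.22, -1.07 and -0.99. On that scale the median was -1.43 for the hypoxia-induced genes and -0.94 for the core enzymes.

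Set side by side per library, the hypoxia-induced genes summed to 3427, 3891 and 3840.1 CPM in isotype, BiTS(mut) and BiTS of the first set, and to 2066, 2108 and 2470.2 CPM in the second. The sums of the core enzymes in the same order were 22752, 25527 and 25550.2 CPM, and 24255, 23939 and 25003 CPM. In CPM the hypoxia-induced genes thus separated the sets without overlap while the core enzymes did not. On the per-length scale the core enzymes separated the sets too. Their sums there were 15426, 16870 and 16676 TPM in the first set and 14084, 14168 and 14671 TPM in the second. Each library's mean log2 CPM of the hypoxia-induced genes minus that of the core enzymes, which does not depend on the scaling, was -2.41, -2.36 and -2.34 in the first set and -2.99, -2.95 and -2.82 in the second. In both sets it was lowest in isotype and highest in BiTS, and the steps between treatments were small beside the step between sets.

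Other lists of the pathway differed between the sets in mixed directions, beside 52.7% of all genes called. Of 22 other hypoxia-induced genes tested 16 fell and 4 rose, with a median of -0.58, among them the heme oxygenase Hmox1 at -1.56 ± 0.08, the carbonic anhydrase Car12 at 1.33 ± 0.10 and the cyclin Ccng2 at -0.83 ± 0.07. Among 10 other HIF pathway subunits and regulators 5 fell, led by Vhl, which degrades the HIF subunit (-0.92 ± 0.08), Arnt, the partner of Hif1a (-0.47 ± 0.08), and the asparaginyl hydroxylase Hif1an (-0.55 ± 0.10), and 2 rose. Glycogen enzymes fell in 6 of 8 cases, with a median of -0.41. The 13 other glycolytic isoforms and side enzymes had 6 higher and 2 lower (median 0.22), with Hk3 at -1.28 ± 0.08 and Adpgk at 0.91 ± 0.09. Pentose phosphate genes had 4 higher and 2 lower of 7 (median 0.17). Myc rose by 0.36 ± 0.07, and Mxd1, which like Mxi1 binds MAX, was at -1.24 ± 0.08.

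The levels of cell type markers differed between the sets as well. In the second set 14 of the 16 tested dendritic cell markers were lower and 1 higher, with a median of -1.01, and their sum went from 3147, 3157 and 2609.5 CPM to 1667, 1758 and 1584 CPM in isotype, BiTS(mut) and BiTS. The 6 tested macrophage and monocyte markers had a median of -1.31 at a sum of at most 52.3 CPM, with defining markers such as Fcgr1 at 0 or 1 counts. T cell markers had 6 of 10 higher and 1 lower, with a median of 0.27. The part of these markers in the lower hypoxia-induced genes was not tested. Nothing in the labels says how the sets differ in culture, day or sequencing, and the set and any such condition cannot be told apart.

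**Figure D4:**
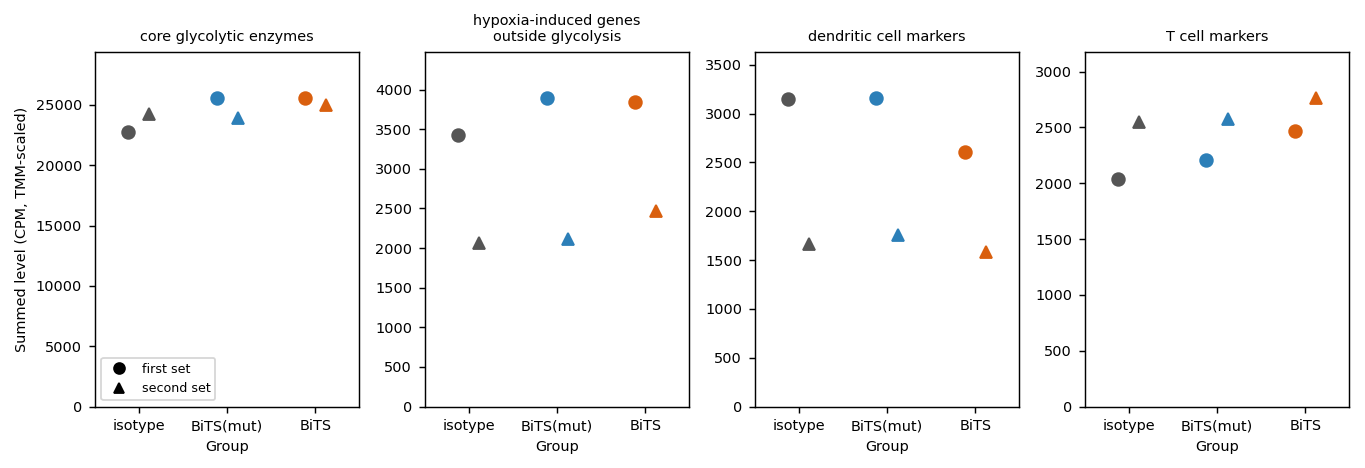
Summed level per library (y axis, CPM) of the core enzymes, the hypoxia-induced genes outside glycolysis, the dendritic cell markers and the T cell markers, by treatment, with circles for the first set and triangles for the second. The hypoxia-induced genes and the dendritic cell markers are lower in the second set in all 3 treatments, while the core enzymes stay between 22752 and 25550.2 CPM.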

How the data were processed

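RNA-seq libraries of 6 samples, 2 in each of 3 groups, were used. The authors deposited a table of unnormalised read counts per gene for each library, with exon intervals and lengths per the file headers. The submitters' processing notes name mm10 and DESeq2. Which aligner, counter, annotation release and strand setting were used was not given in the sources at hand. ERCC transcripts were kept out of totals and tests. Symbols came by identifier from GENCODE release M21 (49326 of 49671 identifiers carried one, and the rest held 0.0713% of counts).

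After TMM scaling and the filterByExpr filter, the two-sided quasi-likelihood test of edgeR 4.0.16 was run in R 4.3.3, with limma 3.58.1 for the voom alternative, and p-values were Benjamini-Hochberg adjusted over 13996 genes and called at an adjusted p under 0.05. CPM are TMM-scaled, within-set differences use log2 CPM with a prior count of 0.5, and TPM use the tables' lengths. Errors are standard errors of the fit unless named. The depth, 10813123 to 15239077 counts, makes 3 counts worth 0.197 to 0.277 CPM.

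The main design has no block. Alternatives were the replicate block (title-number set), limma-voom, DESeq2 1.42.0, scaling by RLE, by library totals or by the spike-ins, no filter or a stricter one (CPM 5 or more in 2 or more libraries), a fit of just the 4 libraries compared, and leaving out each library, where the lone library of a group is assumed to vary like the others. The pairing comes from the title numbers: over 13996 genes, libraries of a set deviated together from their groups' means, with correlations of 0.71, 0.64 and 0.71 for the 3 pairs of groups. A gene's spread had 3 residual and 3.14 prior degrees of freedom without the block, and 2 and 45.9 with it, so a small blocked p rests mostly on the spread shared by all genes. BiTS against isotype counts for 13996 genes were simulated, each gene on its own, from a fit with the set as its only term. On these counts the unblocked test recovered 0% of 100 genes changed 1.5-fold and 0% of 100 changed 2-fold. The blocked test recovered 46% and 74%, with 8 false calls of 128. The set effect was thus built in, so these shares cannot say whether the block is right for the real libraries. Exact permutation of 2 against 2 libraries cannot go below p = 0.333, so single values carry no such test.

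All 39 members are named, in full where called in either fit, with context genes limited to at most 3 called per list and comparison. The members, lists and comparisons were chosen with earlier results of these data known, so list counts and medians are descriptions. Of the context lists, 1 item is not reported here.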

Additional observations from a re-analysis of the deposited data

Results flagged for a closer look

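Of the 39 genes 3 differed in opposite directions in parts of the design, by at least 0.15 on the log2 scale on both sides, and in none of them was the difference tested. Pgk1 in BiTS(mut) against isotype differed by 0.17 in the first set and by -0.19 in the second. Bnip3 in the same comparison differed by 0.23 in the first set and by -0.20 in the second. Pfkfb4, the least abundant of the 39 genes, differed between the second and the first set by -0.24 in isotype and by 0.27 in BiTS. Each of these values compares a single library with another.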

How the results depend on the processing

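The treatment calls needed the block: 0 of 39 members were called in every unblocked alternative of the 3 comparisons, with or without a library left out. For BiTS against isotype the count was 9 with the replicate block, 5 with DESeq2, 10 with limma-voom or no filter, 8 with RLE size factors, library totals or the stricter CPM filter, 7 with only the 4 libraries, 0 with spike-in scaling (where the 9 log2 fold changes were 0.37 to 0.66), and 1 to 14 with a library left out, always with the block. Of the 9 genes Pfkm stayed called in all 13 blocked alternatives other than spike-in scaling, Pdk1, Kdm3a and Slc2a3 in 12, Aldoc in 11, Ankrd37 and Gbe1 in 10, Gpi1 in 8 and Ndrg1 in 5. For BiTS against BiTS(mut) the blocked counts were 3, 1 with DESeq2, 3 with limma-voom, RLE or no filter, 2 with library totals or the stricter filter, 5 with only the 4 libraries, 0 with spike-in scaling, and 0 to 5 with a library left out. BiTS(mut) against isotype stayed at 0 throughout. The set comparison had 27 to 33 calls, of which 28 lower and 0 higher with spike-in scaling, and 20 to 29 with a library left out. Within the first set the core enzyme medians were 0.16 (BiTS against isotype), -0.0023 (BiTS against BiTS(mut)) and 0.15 (BiTS(mut) against isotype). With spike-in scaling and the block, where the all-gene medians were 0.05, 0.18 and -0.12, the hypoxia-induced medians were 0.31, 0.28 and -0.0017 and the core medians of the last 2 comparisons 0.22 and -0.073. With a library left out and no block, the hypoxia-induced medians ran from -0.13 to 0.65, -0.29 to 0.61 and -0.39 to 0.54, and the core medians from 0.055 to 0.16, -0.041 to 0.16 and -0.054 to 0.19. With the block the former ran from 0.15 to 0.31, 0.02 to 0.21 and 0.010 to 0.20, and the latter from 0.02 to 0.18, -0.035 to 0.10 and -0.02 to 0.14. Reversed values were those of Ndrg1 in BiTS against isotype without the block, at -0.30 without BiTS replicate 1 and -0.24 without isotype replicate 4 (up to 0.996 without isotype replicate 1), and, between the sets with spike-in scaling, Tpi1 at -0.47, Ldha at -0.61, Egln3 at -0.17 and Higd1a at -0.58. The cause was not tested. Among uncalled member values of the treatment comparisons, the sign changed in 165 of 702 unblocked values with a library left out, 94 of 702 blocked ones and 111 of 1989 under other settings.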
